A study of Mus musculus with 8 samples.

Results

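Of the 18193 genes with a symbol of their own on the array, 9 of leukemia inhibitory factor (LIF) and STAT3 signalling are described here, chosen by symbol: the receptor genes Lifr and Il6st, the kinase gene Jak1, the transcription factor gene Stat3, and Socs3, Gbx2, Tbx3, Pim1 and Pim3, which act as targets. All probe sets annotated to one of these symbols alone were taken, which gave 28 of the 45101 probe sets on the array, and 25 of the 28 passed the filter on dim signals and were tested. The other 3, 2 of Tbx3 and 1 of Pim3, stayed between 21.1 and 47.2 signal units on every array and were not tested. The measurements came from 8 Affymetrix Mouse Genome arrays of mouse embryonic stem cells on feeder cells, in 4 groups of 2 arrays. J1 cells (129S4/SvJae) carried control shRNA or Rif1 shRNA and were collected 48 h after lipofection. F1 cells (C57BL/6xC3H) carried control shRNA or Rif1 shRNA and were taken at passage 16, the Rif1 shRNA cells as a stable knockdown line. The treatment label of all groups speaks of selection after virus or siRNA, without saying which was used where. The cell line label of the F1 control arrays names the stable knockdown line as well, while their transfection label gives the control shRNA. Nothing in the labels says that the arrays of a group are separate cultures or clones, so the p-values cover only the spread between these arrays, which may be technical.

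LIF binds its receptor, encoded by Lifr, which pairs with the shared signalling chain gp130, encoded by Il6st. The bound JAK kinases phosphorylate STAT3, which then enters the nucleus and activates target genes. In mouse embryonic stem cells this pathway sustains self-renewal. SOCS3 closes a negative feedback loop, since its gene is a STAT3 target and its protein blocks gp130 and the JAK kinases.

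Levels below are deposited MAS5 signals on a linear scale, given for each array. Fold changes were computed as differences of log2(signal + 18) once all 8 arrays had been quantile normalized, which understates those of dim probe sets. They were tested with limma over 31605 probe sets, and passing means an adjusted p (Benjamini-Hochberg) under 0.05. Rif1 fell at all 4 of its probe sets in both lines, with log2 fold changes of -1.35 to -1.08 in J1 and -2.02 to -1.57 in F1. All 11 stem cell markers examined passed the filter on dim signals, which asks for 2 of the 8 arrays and so does not check each group. Between F1 and J1 controls these markers ran from -3.05 to 1.59 on the log2 scale. For actin, the ratio of 3' to 5' signals, a sign of RNA integrity, was 2.61 and 2.71 in J1 controls, 2.17 and 2.18 in J1 Rif1 shRNA arrays and 1.33 to 1.41 on F1 arrays. In bulk RNA, fewer cells of a type and less RNA per cell cannot be told apart.

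In J1 cells, 4 of the 25 tested probe sets passed, all lower in Rif1 shRNA arrays, against 3.18% of all probe sets in either direction, 1.44% higher and 1.74% lower. They belonged to Stat3 (2 probe sets), Il6st and Pim3. In F1 cells, 8 passed, 6 higher and 2 lower, against 15.0% of all probe sets, 8.26% higher and 6.78% lower. The higher ones were all 3 probe sets of Socs3, 2 of Stat3 and the only one of Gbx2. The lower ones were the brightest probe sets of Lifr and Il6st. The median log2 fold change over the 25 was -0.08 in J1 and 0.03 in F1, and over all probe sets tested -0.001 and -0.03. The signals of the 2 groups did not overlap at 12 of the 25 in J1 and at 17 in F1, against 39.5% and 63.2% of all probe sets.

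**Figure D1:**
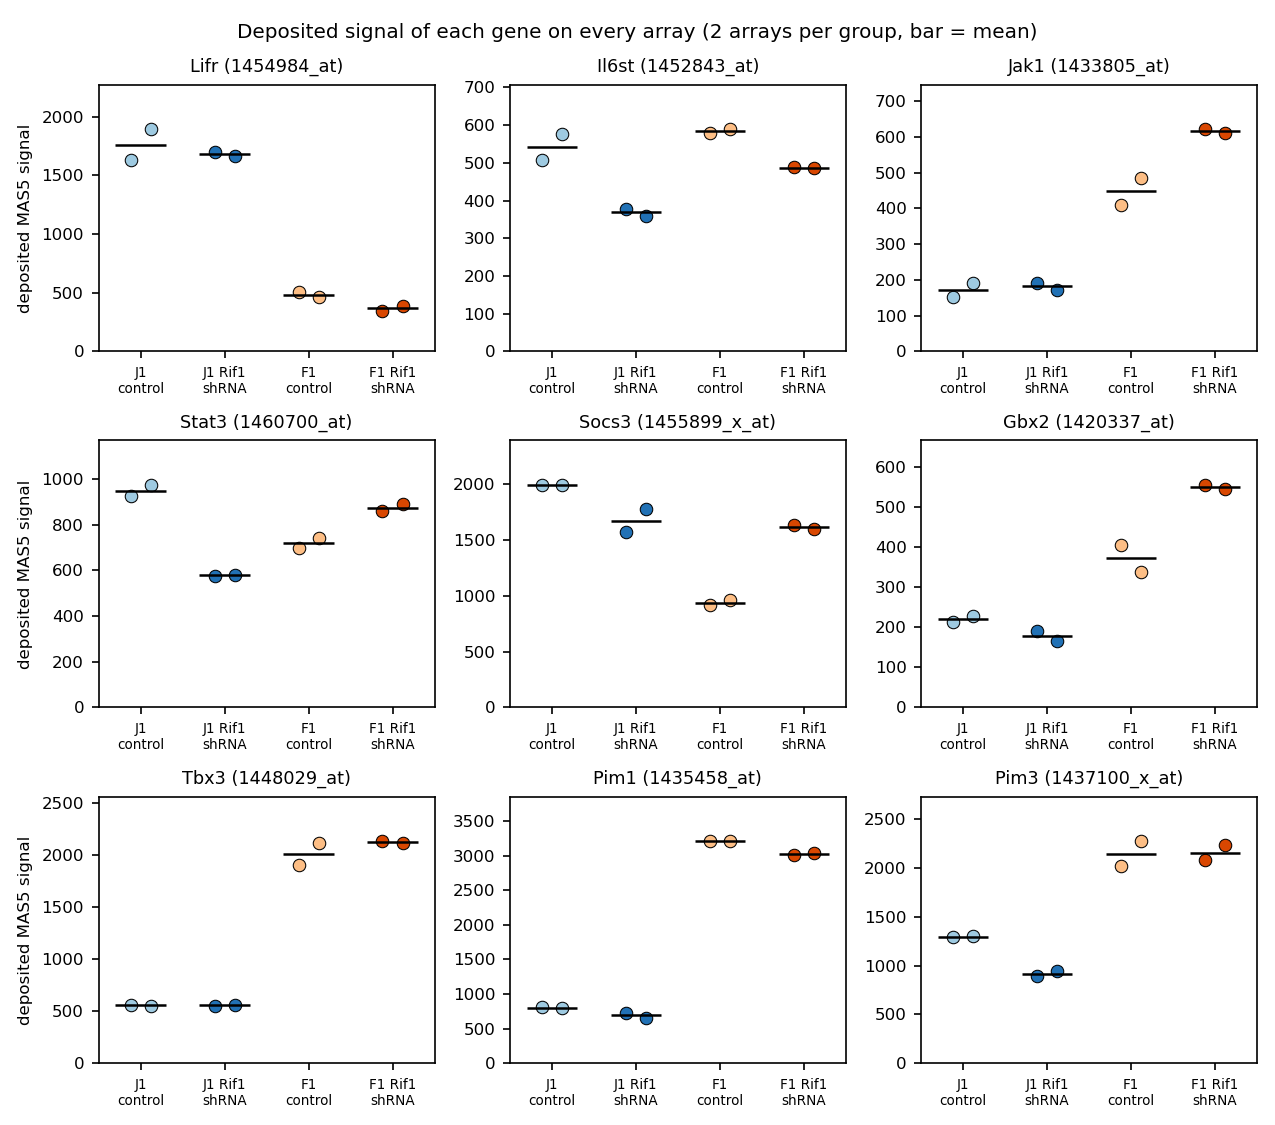
Deposited MAS5 signal (linear axis from 0) of the brightest probe set of each of the 9 genes in the 4 groups; points are the 2 arrays of a group and bars their mean. Stat3 ran at 924 and 974 in J1 controls against 575 and 580 with Rif1 shRNA, while Socs3 ran at 916 and 960 in F1 controls against 1636 and 1599 with Rif1 shRNA.

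Among the receptor genes, Il6st fell in both lines and Lifr fell in F1. Lifr, which encodes the LIF-binding chain, was read mainly by 1454984_at. Its signal was 1628 and 1897 in J1 controls and 1701 and 1667 in J1 Rif1 shRNA arrays. The J1 groups overlapped, with a log2 fold change of -0.05 (SE 0.08, limma adjusted p = 0.805). In F1 it was 508 and 461 in controls against 346 and 389 with Rif1 shRNA. The F1 groups did not overlap, and Lifr fell there by 0.42 on the log2 scale (SE 0.08, limma adjusted p = 0.00601), to 74.9% of the control level. That call was lost without F1 control replicate 1 (adjusted p = 0.0645) or F1 Rif1 shRNA replicate 1 (adjusted p = 0.0923), and it was not shared by the other 2 Lifr probe sets, whose F1 fold changes were 0.05 and 0.03 on the log2 scale at signals between 47.0 and 122. The mean of the 3 probe sets did not pass (-0.11, adjusted p = 0.386). The fall in F1 was not shown to differ from J1 (difference -0.37, 95% interval -0.63 to -0.11, limma adjusted p = 0.0876).

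Il6st encodes gp130, the signal-transducing chain shared by the cytokines of this family. Its brightest probe set, 1452843_at, had 509 and 577 in J1 controls and 378 and 360 in J1 Rif1 shRNA arrays. It had 580 and 590 in F1 controls and 489 and 485 in F1 Rif1 shRNA arrays. Both Rif1 shRNA groups lay below their controls. On the log2 scale the change was -0.53 in J1 (SE 0.08, limma adjusted p = 0.00642) and -0.30 in F1 (SE 0.08, limma adjusted p = 0.0242). Il6st was the one gene of the 9 that fell in both lines at its brightest probe set, and the effects were not shown to differ (difference 0.23, 95% interval -0.01 to 0.48, limma adjusted p = 0.254). The J1 call was lost without J1 control replicate 2 (adjusted p = 0.0579), and the F1 call when any 1 of the 4 F1 arrays was left out (adjusted p = 0.122 to 0.162). The F1 call was also lost with arrays scaled to one median (0.135), no intensity trend (0.0517) and the replicate block (0.0631), and the mean of the 4 probe sets passed in neither line (adjusted p = 0.118 and 0.143). None of the other 3 Il6st probe sets, which are dimmer, passed in either line. Of these, 1437303_at had -0.48 in J1 (adjusted p = 0.135) and -0.21 in F1 (adjusted p = 0.440), while 1421239_at had 0.02 and 0.09. The last, 1460295_s_at, had -0.04 in J1 and -0.34 in F1 (limma adjusted p = 0.907 and 0.0894). In F1 it passed as lower with values as deposited (-0.38, adjusted p = 0.0377) and with only the 4 F1 arrays in the fit (adjusted p = 0.0168).

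Jak1 encodes a tyrosine kinase bound to gp130. Its brightest probe set, 1433805_at, had 152 and 192 in J1 controls, 192 and 173 in J1 Rif1 shRNA arrays, 409 and 485 in F1 controls and 622 and 610 in F1 Rif1 shRNA arrays. The J1 groups overlapped and the F1 groups did not. In F1 the 3 Jak1 probe sets had log2 fold changes of 0.37, 0.35 and 0.55, none past the threshold (limma adjusted p = 0.0868, 0.0798 and 0.0696). With only the 4 F1 arrays in the fit, where 25.8% of all probe sets passed, all 3 passed (limma adjusted p = 0.0106, 0.00423 and 0.0441). All 3 also passed with values as deposited (0.45, 0.46 and 0.70, limma adjusted p = 0.0179, 0.00629 and 0.0179), where 19.6% of all probe sets passed. In J1 the probe sets disagreed, at 0.08, 0.11 and -0.62 (limma adjusted p = 0.804, 0.711 and 0.103). The last of these, 1433804_at, was the Jak1 probe set whose effect differed between the lines (difference 1.17, SE 0.26, limma adjusted p = 0.0183). That difference was lost when J1 control replicate 2 (adjusted p = 0.0789) was left out, and likewise for F1 control replicate 1 (0.0772) and for F1 Rif1 shRNA replicates 1 and 2 (0.0511 and 0.0904).

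Stat3, the transcription factor gene at the centre of the pathway, was lower in J1 and higher in F1 with Rif1 shRNA at 2 of its 4 probe sets. At 1460700_at it had 924 and 974 in J1 controls and 575 and 580 in J1 Rif1 shRNA arrays. In F1 it had 699 and 741 in controls against 857 and 889 with Rif1 shRNA. The groups did not overlap in either line, and they were ordered in opposite ways. Stat3 fell in J1 to 62.5% of the control level (log2 fold change -0.68, SE 0.07, limma adjusted p = 0.000538) and rose 1.17-fold in F1 (0.23, SE 0.07, limma adjusted p = 0.0396). The J1 fall passed under each of 23 alternatives, with adjusted p up to 0.0293, and with only the 4 J1 arrays it had adjusted p = 0.00434. The F1 rise was lost in 11 of 23 alternatives, among them each of the 4 in which 1 F1 array was left out (adjusted p = 0.102 to 0.276). It was also lost with no filter (0.0646), arrays scaled to one median (0.136), no intensity trend (0.0968), the replicate block (0.0679) and the mean of the 4 Stat3 probe sets (0.09, adjusted p = 0.481).

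The second Stat3 probe set, 1426587_a_at, gave the same order. It had 575 and 675 in J1 controls against 442 and 418 in Rif1 shRNA arrays, and 664 and 649 in F1 controls against 808 and 875 in Rif1 shRNA arrays. It fell in J1 (-0.51, SE 0.08, limma adjusted p = 0.00944) and rose in F1 (0.30, SE 0.08, limma adjusted p = 0.0328). The J1 call was lost without J1 control replicate 2 (adjusted p = 0.0790) and the F1 call when any 1 of the 4 F1 arrays was left out (adjusted p = 0.105 to 0.261). The F1 call was also lost with arrays scaled to one median (limma adjusted p = 0.0869), no intensity trend (0.0765) and the replicate block (0.0727). The F1 effect exceeded the J1 effect at both probe sets, by 0.91 (SE 0.09, limma adjusted p = 0.000221) and 0.82 (SE 0.12, limma adjusted p = 0.0018), and these differences passed in every alternative run. Being lower in J1 and higher in F1, each past the threshold, held for 90 of the 31605 probe sets (0.285%), a count made after the Stat3 values were seen. The other 2 Stat3 probe sets did not pass in either line. The signal of 1459961_a_at ran from 40.3 to 52.8 in J1 cells and from 165 to 243 in F1 cells, with log2 fold changes of -0.14 in J1 and -0.22 in F1 (limma adjusted p = 0.673 and 0.360), so its F1 value had the opposite sign to the rise above. The signal of 1424272_at ran from 70.8 to 90.6 in J1 cells and from 14.0 to 16.3 in F1 cells, with -0.08 and 0.03. The F1 effect less the J1 effect was -0.08 and 0.11 at these 2 (limma adjusted p = 0.857 and 0.745).

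Socs3, the feedback inhibitor gene, showed the largest F1 fold change among the brightest probe sets of the 9 genes. At 1455899_x_at it had 916 and 960 in F1 controls and 1636 and 1599 in F1 Rif1 shRNA arrays. It rose 1.66-fold (log2 fold change 0.73, SE 0.07, limma adjusted p = 3.02e-05). In J1 it had 1993 and 1990 in controls against 1568 and 1779 with Rif1 shRNA. The J1 groups did not overlap, yet the log2 fold change of -0.23 did not pass (SE 0.07, limma adjusted p = 0.0975). It passed without J1 Rif1 shRNA replicate 2 (-0.31, adjusted p = 0.0324).

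The remaining Socs3 probe sets also rose in F1. At 1416576_at the signal was 486 and 505 in F1 controls and 896 and 818 in F1 Rif1 shRNA arrays (0.69, SE 0.07, limma adjusted p = 0.000115). At 1456212_x_at it was 642 and 629 against 986 and 989 (0.56, SE 0.08, limma adjusted p = 0.000794). Affymetrix marks with _x_ those probe sets that may bind other transcripts, and 1416576_at carries no such mark. The F1 rise of 1455899_x_at and 1416576_at passed in every alternative run. That of 1456212_x_at passed in all but the one that also asked for a change of at least 1.5-fold. In J1 the same 2 had -0.06 (limma adjusted p = 0.754) and -0.30 (limma adjusted p = 0.0750). The F1 effect exceeded the J1 effect at all 3, by 0.96, 0.85 and 0.74 (limma adjusted p = 0.00016, 0.001 and 0.00156).

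Gbx2, a homeobox gene that LIF and STAT3 induce in stem cells, was read by 1420337_at alone. It had 214 and 227 in J1 controls, 190 and 165 in J1 Rif1 shRNA arrays, 406 and 339 in F1 controls and 556 and 545 in F1 Rif1 shRNA arrays. The groups did not overlap in either line and were ordered in opposite ways. It rose 1.36-fold in F1 (0.45, SE 0.12, limma adjusted p = 0.0242), and its J1 value of -0.35 did not pass (SE 0.12, limma adjusted p = 0.140). The difference of 0.80 between the lines passed (SE 0.16, limma adjusted p = 0.0125). The F1 rise was lost without F1 control replicate 2 (adjusted p = 0.223) or F1 Rif1 shRNA replicate 1 or 2 (0.162 and 0.122), and with the replicate block (0.0521). The difference was lost without the same arrays (0.0649, 0.0667 and 0.0568) or J1 control replicate 2 (0.0545). The J1 value passed without J1 Rif1 shRNA replicate 1 (-0.51, adjusted p = 0.0382).

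Of the other 3 targets, none passed in F1. Tbx3, a T-box factor gene of naive stem cells, had 561 and 550 in J1 controls and 554 and 557 in J1 Rif1 shRNA arrays at 1448029_at. In F1 it had 1908 and 2113 in controls against 2137 and 2118 with Rif1 shRNA. Its log2 fold changes were 0.02 in J1 (95% interval -0.13 to 0.17) and 0.05 in F1 (95% interval -0.10 to 0.20), and 0 of its 3 tested probe sets passed in either line. Pim1 and Pim3 encode serine and threonine kinases that promote survival. At 1435458_at Pim1 had 810 and 799 in J1 controls and 734 and 651 in J1 Rif1 shRNA arrays (-0.19, SE 0.07, limma adjusted p = 0.159). It passed without J1 Rif1 shRNA replicate 1 (-0.28, adjusted p = 0.0266). In F1 Pim1 had 3211 and 3210 in controls against 3011 and 3040 with Rif1 shRNA, a log2 fold change of -0.09 (95% interval -0.24 to 0.05, limma adjusted p = 0.431). With only the 4 F1 arrays in the fit, the dimmer Pim1 probe set 1423006_at passed as lower (-0.17, limma adjusted p = 0.0367).

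Pim3 fell in J1 at 1437100_x_at, from 1290 and 1299 in controls to 891 and 942 in Rif1 shRNA arrays. This was a drop to 72.5% of the controls (-0.46 on the log2 scale, SE 0.07, limma adjusted p = 0.00768). In F1 it had 2016 and 2275 in controls against 2077 and 2233 with Rif1 shRNA. These overlapped, with a log2 fold change of -0.03 (95% interval -0.18 to 0.13, limma adjusted p = 0.871). The difference of 0.44 passed (SE 0.10, limma adjusted p = 0.0223). The J1 fall was lost without J1 control replicate 1 or 2 (adjusted p = 0.0530 and 0.0660) and with no intensity trend (0.0604). The difference was lost without either of these (0.0628 and 0.0697), F1 control replicate 1 (0.0907) or F1 Rif1 shRNA replicate 1 or 2 (0.0540 and 0.127), and with no intensity trend (0.0945). The other tested Pim3 probe set, 1451069_at, which carries no cross-hybridisation mark, had -0.19 in J1 (limma adjusted p = 0.189), at 384 and 404 in controls against 336 and 349 with Rif1 shRNA.

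**Figure D2:**
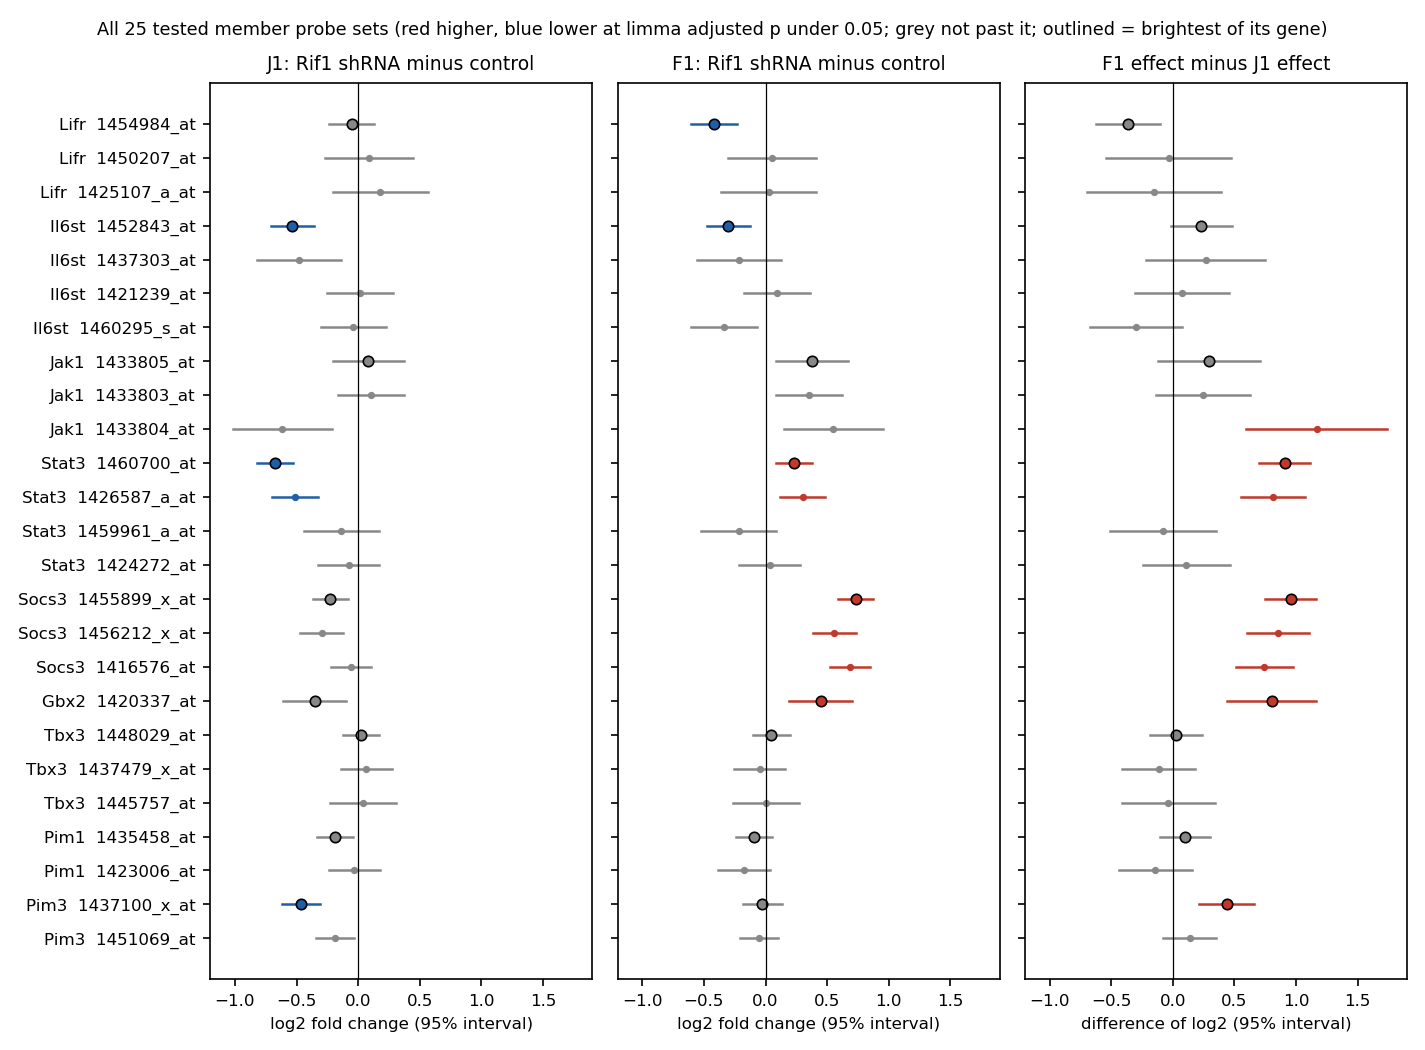
Log2 fold changes with 95% intervals of all 25 tested probe sets (rows), for Rif1 shRNA minus control in J1 (left) and F1 (middle), and the difference between the lines, F1 less J1 (right). The 8 differences past the threshold, at Jak1, Stat3, Socs3, Gbx2 and Pim3, all lie to the right of 0.

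Read against each other, the upstream genes and the targets did not move as a block. In J1, 3 of 9 genes fell at their brightest probe set (Il6st, Stat3 and Pim3) and 0 rose. The J1 values of Lifr, Jak1 and Tbx3 lay between -0.05 and 0.08, and those of Socs3, Gbx2 and Pim1 between -0.35 and -0.19. In F1, 3 rose (Stat3, Socs3 and Gbx2) and 2 fell (Lifr and Il6st), so the receptor genes and 2 of the 5 targets changed in opposite directions at these probe sets. Among these F1 calls only that of Socs3 passed in every alternative run. Those of Stat3, Lifr and Il6st were lost in the mean of a gene's probe sets, and that of Gbx2 with the replicate block. Tbx3, Pim1 and Pim3 had F1 values between -0.09 and 0.05. The test of the difference passed at 8 of 25 probe sets, all with the F1 effect above the J1 effect, against 8.33% of all probe sets in either direction, 4.98% higher and 3.35% lower. Whether past the threshold or not, the difference was positive at 17 of the 25 and negative at 8.

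Genes listed as markers of other cells moved with the F1 comparison. The marker lists were chosen with earlier results of these data known, so their counts are a description only. Of 26 tested feeder fibroblast markers, 22 rose and 0 fell in F1 Rif1 shRNA arrays, with a median log2 fold change of 1.10. Their summed signal was 22975 to 23096 in F1 controls and 43312 to 45032 in F1 Rif1 shRNA arrays. In J1, 1 of the 26 rose and 5 fell, and the summed signal was 17023 to 17969 in controls and 16047 to 16062 in Rif1 shRNA arrays. Of 7 tested trophoblast markers, 5 rose and 1 fell in F1, with a summed signal of 2365 to 2552 in controls and 9634 to 10494 in Rif1 shRNA arrays. Of the 8 primitive endoderm markers, 2 rose and 1 fell in F1, while 2 fell in J1. Of 11 stem cell markers, 7 fell and 1 rose in F1, with a median of -0.26, and 0 passed in J1. Over all probe sets, 8.26% rose and 6.78% fell in F1, and 1.44% rose and 1.74% fell in J1. No marker was listed at 0 on any array, since the lowest deposited value was 1. The part of other cells in the F1 changes of Socs3, Stat3, Gbx2, Lifr and Il6st was not tested, nor was that of the actin ratio in the J1 changes.

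The promoter windows of Stat3, Socs3 and Gbx2, the 3 genes that rose in F1, were searched for the STAT element TTCNNNGAA. The motif reads the same on both strands. The windows are the 250 bases before the start in RefSeq's table (GRCm38.p6), which held 8 of the 9 genes; Tbx3 was the exception. Capitals mark a match.
Stat3 (chr11:100939541-100939790, minus strand): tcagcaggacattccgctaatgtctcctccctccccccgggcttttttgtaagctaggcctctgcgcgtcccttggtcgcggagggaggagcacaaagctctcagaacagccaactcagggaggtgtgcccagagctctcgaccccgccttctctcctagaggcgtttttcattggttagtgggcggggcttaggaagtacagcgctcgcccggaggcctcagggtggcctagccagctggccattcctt
Socs3 (chr11:117969367-117969616, minus strand): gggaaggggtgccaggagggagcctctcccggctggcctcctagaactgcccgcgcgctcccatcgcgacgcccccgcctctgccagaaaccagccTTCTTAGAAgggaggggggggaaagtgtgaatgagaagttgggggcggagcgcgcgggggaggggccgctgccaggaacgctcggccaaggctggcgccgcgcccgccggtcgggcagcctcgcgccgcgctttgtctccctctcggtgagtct
Gbx2 (chr1:89931177-89931426, minus strand): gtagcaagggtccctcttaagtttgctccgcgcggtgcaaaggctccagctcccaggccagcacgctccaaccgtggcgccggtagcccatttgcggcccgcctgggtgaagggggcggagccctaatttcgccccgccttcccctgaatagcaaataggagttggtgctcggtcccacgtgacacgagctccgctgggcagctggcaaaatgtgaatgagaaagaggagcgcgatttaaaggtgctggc
Socs3 held 1 match, TTCTTAGAA, which began 154 bases before the start used here. That window lies inside the annotated span of Socs3 (117966079 to 117970336), so this start is internal to the gene. The match is therefore not upstream of the whole gene. The Lifr windows and a Pim1 window also lie inside their genes. The windows of Stat3, Gbx2, Lifr, Il6st, Jak1, Pim1 and Pim3 held 0. Among 32817 windows of the same length, 7.01% held a match. A match describes these letters only.

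Other genes of the pathway were taken from 3 lists, in which 2 genes passed in J1 and 15 in F1; over all probe sets 3.18% passed in J1, and in F1 15.0% passed, 8.26% higher and 6.78% lower. Of 19 tested ligand, receptor, kinase and STAT genes outside the 9, 0 passed in J1 and 3 rose and 2 fell in F1. Osmr, the oncostatin M receptor chain that pairs with gp130, rose most (1.04, SE 0.11, limma adjusted p = 9.45e-05), from 47.0 and 49.0 in F1 controls to 146 and 129 in Rif1 shRNA arrays. Il6, the ligand gene interleukin 6, rose by 0.78 (limma adjusted p = 0.000666) and Clcf1, another ligand gene of the family, by 0.52 (limma adjusted p = 0.0107), both from signals under 62 units. Gab1, an adaptor gene, fell by 0.53 on the log2 scale (limma adjusted p = 0.000404), from 1756 and 1960 to 1370 and 1269. Stat6 fell by 0.44 (limma adjusted p = 0.0118) and was named after its values were seen. The list's median was 0.10 in J1 and 0.06 in F1.

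Of 14 inhibitor genes, 0 passed in J1 and 1 rose and 3 fell in F1. Socs1 rose by 0.37 (limma adjusted p = 0.0331), from 47.3 on both control arrays to 66.2 and 75.1. Socs2 fell by 0.46 on the log2 scale (limma adjusted p = 0.00222), from 2903 and 3008 to 2063 and 2366. Pias2 and Pias4, which encode SUMO ligases of the PIAS family, fell by 0.38 and 0.31 (limma adjusted p = 0.00229 and 0.0483). Socs3 and Socs1 thus rose while Socs2 fell in the same arrays. The list's median was -0.05 in both lines.

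Of 20 genes known as LIF-induced or STAT3-bound, 1 rose and 1 fell in J1, and 6 rose and 0 fell in F1. In J1, Tfcp2l1, a naive pluripotency factor downstream of STAT3, fell by 0.61 on the log2 scale (SE 0.10, limma adjusted p = 0.0101), from 550 and 598 in controls to 406 and 339 in Rif1 shRNA arrays. Pim2, the third PIM kinase gene, rose by 0.63 (SE 0.12, limma adjusted p = 0.0185), from 421 and 478 to 742 and 634, while Pim3 fell. In F1, Zfp36, an mRNA decay factor, rose most (0.98, SE 0.15, limma adjusted p = 0.00116), from 402 and 349 to 913 and 734. The immediate early genes Ier3 and Junb rose by 0.80 and 0.66 (limma adjusted p = 0.00336 and 0.00575), and Bcl6, a repressor gene, by 0.61 (limma adjusted p = 0.00434). The list's median was -0.02 in J1 and 0.11 in F1. The genes of these 3 lists that rose in F1 rose in the arrays where fibroblast markers rose, and the part of those cells was not tested.

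**Figure D3:**
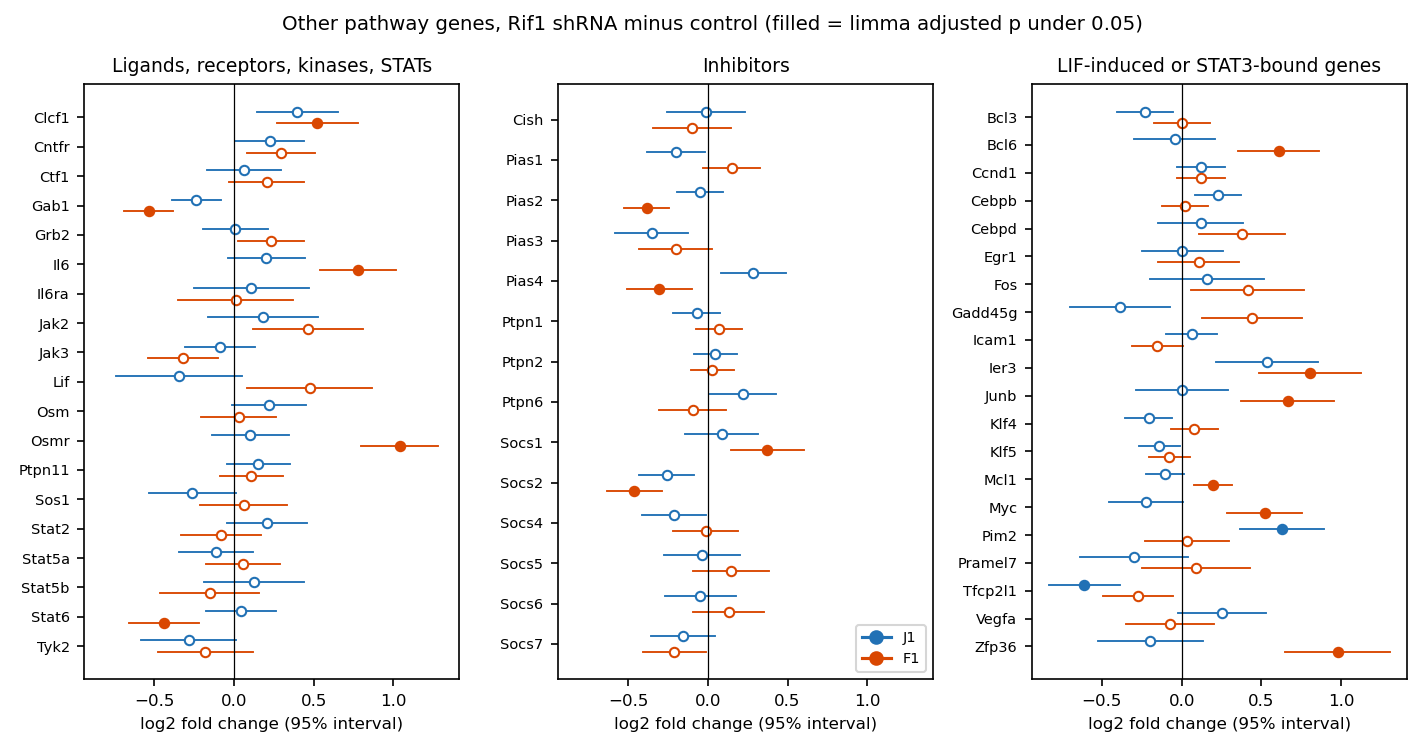
Log2 fold changes (x axis, with 95% intervals) of the other pathway genes, each at its brightest tested probe set, in J1 (blue) and F1 (orange); filled points passed the threshold. In F1 10 filled points lie above 0 and 5 below it over the 3 panels, and in J1 only Pim2 and Tfcp2l1 are filled.

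The control groups of the 2 lines differed in these genes, though line, strain and passage cannot be told apart here. The same holds for any difference in delivery or array run, which the labels used here do not give for both lines. Of the 25 probe sets, 20 passed between F1 and J1 controls, 11 higher and 9 lower in F1, against 67.5% of all probe sets, 33.5% higher and 34.0% lower. Scaling mattered: with values as deposited, 13 were higher and 6 lower, and over all probe sets 16541 were higher and 6349 lower, against 10573 and 10755 after quantile normalization. The median log2 fold change over all probe sets was -0.02 after normalization and 0.30 as deposited. Lifr and Socs3 were lower in F1 controls under both scalings at their brightest probe sets, with log2 differences of -2.52 and -1.82 for Lifr and -1.80 and -1.07 for Socs3. Tbx3 (1.05 and 1.82), Pim1 (1.22 and 1.97) and Jak1 (0.68 and 1.30) were higher in F1 controls under both. Stat3 at 1460700_at was lower under both (-1.16 and -0.39). Il6st at 1452843_at was lower after normalization (-0.65, limma adjusted p = 2.63e-05) and did not differ past the threshold as deposited (0.11, limma adjusted p = 0.238). Stat3 at 1426587_a_at likewise ran from -0.71 to 0.07 (limma adjusted p = 2.1e-05 and 0.455). Other probe sets did not all share these directions. After normalization Stat3 had 1.70 at 1459961_a_at and -1.59 at 1424272_at. Il6st had 0.89 at 1437303_at, 0.86 at 1460295_s_at and -0.94 at 1421239_at. Jak1 1433804_at (-0.28) and the dimmer Lifr probe sets (-0.29 and 0.10) did not pass, while Jak1 1433803_at did (0.53). Socs3 1416576_at was lower after normalization (-0.78) and did not pass as deposited (-0.05, limma adjusted p = 0.584). Pim3 at 1437100_x_at and Gbx2 did not pass after quantile normalization (-0.05 and 0.06), and passed as higher with values as deposited (0.72 and 0.71) and with arrays scaled to one median (0.67 and 0.66). On the deposited scale, the F1 rise of Socs3 ended at a signal below that of J1 controls at 1455899_x_at, and above it at 1416576_at, where J1 controls had 508 and 516. After normalization it ended below J1 controls at both. At 1416576_at the normalized log2 values were 9.41 and 9.29 in F1 Rif1 shRNA arrays against 9.45 and 9.43 in J1 controls.

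**Figure D4:**
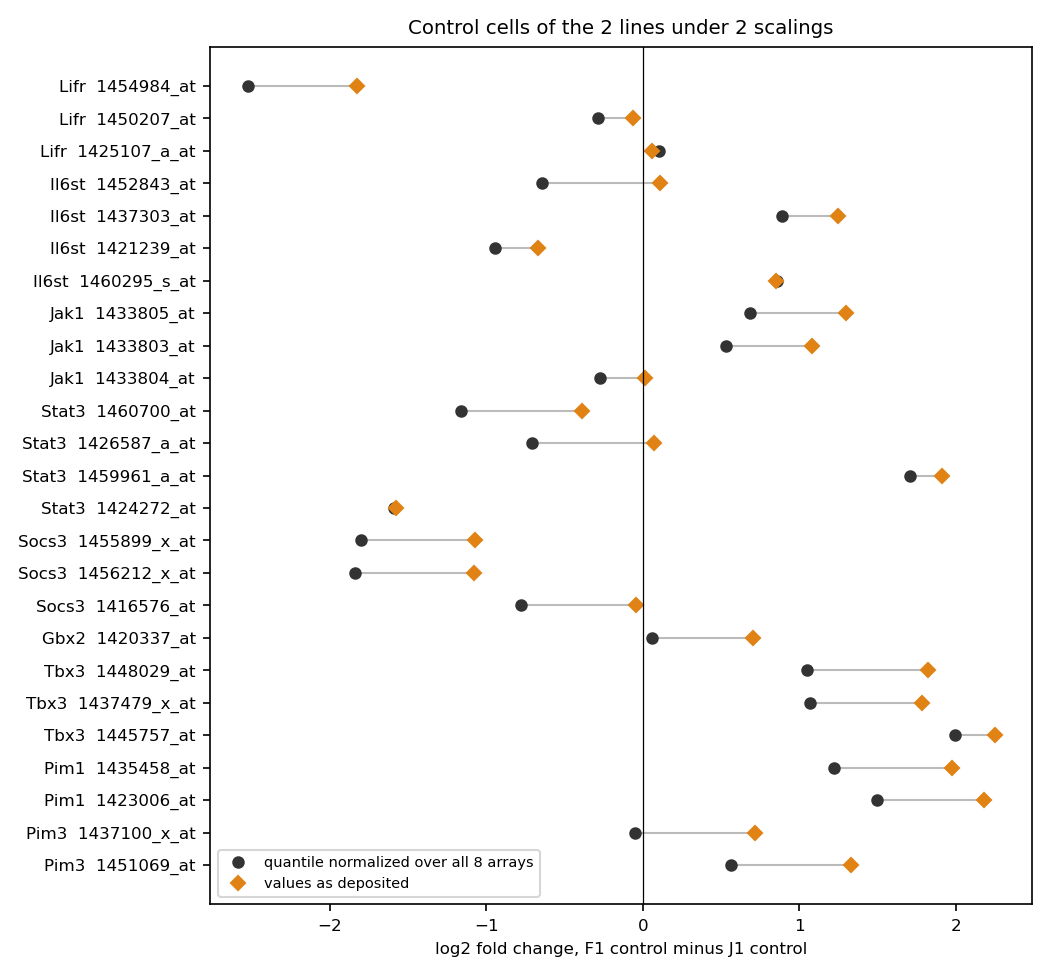
Log2 fold change between F1 control and J1 control arrays (x axis) for the 25 tested probe sets (rows), after quantile normalization of all arrays (circles) and with values as deposited (diamonds). The values as deposited lie further to the right for most probe sets, and Il6st at 1452843_at runs from -0.65 to 0.11.

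Over the 8 normalized arrays, the genes whose brightest probe set followed that of Stat3 most closely, among 14713 others, were Fndc3a (Pearson r 0.985), Bace1 (0.984), Nts (0.984), Naa30 (0.981) and Sacm1l (0.981). Of these, Fndc3a and Nts fell in J1 (-0.56 and -0.81, limma adjusted p = 0.00283 and 0.00594), and 0 passed in F1. The genes closest to Socs3 were Nomo1, Tcta, Urm1, Sys1 and Rbm43 (r 0.992 to 0.994), of which 4 rose in F1 with Socs3 (0.32 to 0.56), while Urm1 had 0.25 (limma adjusted p = 0.0648). These r values describe 8 arrays from 2 lines, and after normalization Stat3 and Socs3 differed more between the control groups of the lines than with Rif1 shRNA in either.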

How the data were processed

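The authors deposited linear intensity values made with MAS5 per the submitters' processing notes; its version and detection calls are not given in the sources used here. Trimmed means of the 45101 signals per array were 193 to 197 on J1 and 301 to 309 on F1 arrays, so log2(signal + 18) was quantile normalized across all arrays, where 18 is the 10th percentile of the table. Without 64 array controls, 31605 probe sets exceeded an array's 40th percentile at least 2 times and entered 1 limma fit of the 4 group means (limma 3.58.1, R 4.3.3, intensity trend, two-sided, Benjamini-Hochberg), with 4 residual degrees of freedom. The fit was run on simulated data with independent noise of the same spread on every array. That run does not cover the unlike spread of the 2 lines. Median residual SD was 0.115 in J1 and 0.0657 in F1, so the shared spread is lenient for J1 and strict for F1. The number of arrays limits the precision. Symbols came from the platform annotation, and all 9 matched RefSeq. A gene of a list is represented by its brightest tested probe set. Named are all member and Rif1 probe sets, per list and line the 4 called genes with the smallest p, and the 5 genes most correlated with Stat3 and Socs3. Members and lists were chosen with earlier results of these data known. Alternatives varied offset, filter, scaling, spread, threshold, block, probe sets and arrays. Figures used matplotlib 3.10.9.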

Additional observations from a re-analysis of the deposited data

Results flagged for a closer look

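The effect of Rif1 shRNA differed between F1 and J1 by limma's test of the difference at 8 probe sets of the 9 genes. The F1 effect minus the J1 effect, on the log2 scale, was 0.91 and 0.82 at Stat3, 0.96, 0.85 and 0.74 at Socs3, 0.80 at Gbx2, 0.44 at Pim3 and 1.17 at Jak1 (1433804_at), with adjusted p from 0.00016 to 0.0223. Among the other named genes it was 0.94 at Osmr, 0.57 at Il6, 1.18 at Zfp36 and 0.65 at Bcl6, where F1 was higher (adjusted p from 0.00401 to 0.0428). It was -0.34 at Pias2 and -0.59 at Pias4 (adjusted p = 0.0472 and 0.0184), and -0.66 and -0.82 at 2 Rif1 probe sets (adjusted p = 0.00489 and 0.00796). Line, strain and time differ together between these comparisons and cannot be told apart, nor can any difference in delivery.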

How the results depend on the processing

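The number of the 25 probe sets past the threshold was 4 in J1, 8 in F1, 8 for the difference and 20 between controls. Leaving out 1 array at a time gave 1 to 6, 3 to 10, 5 to 9 and 20 to 21; the lone array is then assumed to vary like the others. Asking also for at least 1.5-fold left 1 in J1 and 2 in F1, against 0.867% and 4.64% of all probe sets. An adjusted p under 0.01 left 4 in F1 and 5 for the difference, against 8.18% and 3.58%. With no intensity trend 5 passed in F1, against 12.1%, and with only the 4 F1 arrays 13, against 25.8%. Over all alternatives the number of all probe sets past the threshold ran from 227 to 1802 in J1 (1005 in the fit reported), from 1468 to 8140 in F1 (4753) and from 1010 to 3995 for the difference (2634). With the replicate block 4 passed in J1, 4 in F1, 8 for the difference and 20 between controls, against 1.49%, 11.6%, 5.39% and 63.6%; same-numbered arrays deviated with a correlation of -0.34 in J1 and 0.19 in F1, and the labels do not pair them. A crossed pairing in J1, chosen after seeing the data, gave 6, 12, 8 and 22, against 5.70%, 19.3%, 12.2% and 71.8%. When a gene's tested probe sets were averaged, F1 calls of Stat3 (0.09, adjusted p = 0.481), Lifr (-0.11, 0.386) and Il6st (-0.19, 0.143) were lost, and so was the J1 call of Il6st (-0.26, 0.118). Of the 20 values past the threshold in J1, F1 and their difference, 0 changed sign. Between controls, scaling to one median or values as deposited turned Stat3 at 1426587_a_at (from -0.71 to 0.027 and 0.073), Il6st (from -0.65 to 0.061 and 0.11) and Pim3 (from -0.05 to 0.67 and 0.72), and gene averages turned Il6st to 0.040 and Pim3 to 0.26; the cause was not tested. Normalization within each line was not applied to the comparison of controls, and gene means give no count of probe sets.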
